A study of Mus musculus with 10 samples.

Results

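The genes described here are 9 transcription factors of the macrophage lineage: Spi1, Cebpa, Cebpb, Cebpd, Maf, Mitf, Tfec, Bach1 and Bhlhe41. They were chosen by name, as the rows of the deposited table that carry these symbols, and all 9 were found among its 16936 protein-coding genes. RNA was sequenced from mouse bone marrow-derived macrophages grown from marrow in GM-CSF (50 ng/mL, 7 days), a cytokine that gives marrow cells macrophage and dendritic cell features. There were 5 samples exposed for 24 h to PLG, which the series' design text gives as human plasminogen, and 5 untreated samples. All 10 samples share the GM-CSF culture, and the labels name no strain, age, sex or genotype. Plasmin, a protease that dissolves fibrin, is made from plasminogen, and the series' title concerns activation of the receptor Tlr2 in macrophages. Whether the replicates are separate mice or separate cultures is not stated in the labels. The p-values therefore rest on sample-to-sample spread alone, and this spread may be purely technical.

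Macrophage identity rests on a small set of factors that open chromatin and hold it open. PU.1, the product of Spi1, binds enhancers across the macrophage genome together with C/EBP proteins, and factors such as NF-kB bind many of these sites when a toll-like receptor is engaged. MAF, the MiT proteins Mitf and Tfec, Bach1 and Bhlhe41 act on narrower programmes, among them self-renewal, lysosomes and the handling of haem.

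Expression was measured as FPKM, read counts scaled to gene length and sequencing depth, so levels can be compared between genes. The reads on the table's genes came to 33547114 to 64214396 per PLG library and 28426106 to 37680167 per untreated library. The members had between 351 reads, for Maf, and 16931, for Spi1, in a library. In PLG 3, PLG 4 and untreated 2, only 0.130% to 0.797% of reads fell on the repeat-like gene models Gm10800, Gm10801 and Gm21738, against 2.13% to 5.92% in the other 7 libraries. Cell type markers were checked as well. Over all genes tested 29.1% were called higher with PLG and 31.3% lower. Of 7 macrophage markers, all tested, 1 was higher and 5 were lower with PLG. These markers summed to 2565 to 2777 FPKM in PLG samples and 5842 to 7357 FPKM in untreated samples. Lyz2 made up most of both sums, at 2000 ± 77.9 FPKM with PLG and 5792 ± 561 FPKM untreated (SD, n = 5 each). The marker that was higher was Adgre1, at 177 ± 9.79 FPKM with PLG and 80.0 ± 4.80 FPKM untreated. Dendritic cell markers summed to 905 to 998 FPKM in PLG samples and 567 to 694 FPKM in untreated samples, with 3 of 6 tested genes higher and 3 lower. The direction of that sum was set by Ccr7, a receptor of migrating dendritic cells, at 542 ± 27.1 FPKM with PLG and 38.1 ± 10.8 FPKM untreated (SD, n = 5 each). Ccr7 was named after its values were seen. Without it, the dendritic cell markers summed to 398 to 437 FPKM in PLG samples and 535 to 649 FPKM in untreated samples. Of the 5 genes tested without Ccr7, 2 were higher and 3 lower with PLG. Flt3 rose to a mean of 2.097 FPKM with PLG against 0.113 FPKM untreated, and Zbtb46 to 6.40 FPKM against 1.71 FPKM. Itgax fell to 156 FPKM against 270 FPKM, H2-Ab1 to 248 FPKM against 313 FPKM and Cd209a to 0.0142 FPKM against 2.995 FPKM. Flt3 was at most 0.175 FPKM untreated and Cd209a at most 0.071 FPKM with PLG. Each passed the expression filter (1 FPKM or more in at least 5 samples) through a single group, which fixed its direction. Itgax and H2-Ab1 made up most of the sum without Ccr7. These 5 genes were also named after their values were seen. The defining markers of B cells stayed at a sum of at most 0.448 FPKM in PLG samples and 0.893 FPKM in untreated samples, and those of T and NK cells at most 0.815 FPKM in PLG samples and 0.571 FPKM in untreated samples. In bulk RNA, fewer cells of a type and less RNA per cell cannot be told apart, and the part of these marker differences in the results below was not tested.

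Promoters are shown for 3 members: Cebpa and Cebpb, because they encode closely related proteins and moved apart, and Tfec, because it fell like Cebpa from a promoter of different base composition. Each line gives the 250 bases before the annotated start, 5′ to 3′ on the gene's strand, from RefSeq on GRCm38.p6. The Cebpa stretch is chr7:35119043-35119292 (+), that of Cebpb chr2:167688665-167688914 (+) and that of Tfec chr6:16898442-16898691 (-). Capitals mark every match, on either strand and with overlaps allowed, to the motifs searched.
Cebpa: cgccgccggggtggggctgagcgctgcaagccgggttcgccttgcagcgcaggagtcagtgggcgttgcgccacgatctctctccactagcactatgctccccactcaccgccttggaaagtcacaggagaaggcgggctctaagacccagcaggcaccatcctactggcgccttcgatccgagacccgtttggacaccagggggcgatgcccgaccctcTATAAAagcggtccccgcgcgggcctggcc
Cebpb: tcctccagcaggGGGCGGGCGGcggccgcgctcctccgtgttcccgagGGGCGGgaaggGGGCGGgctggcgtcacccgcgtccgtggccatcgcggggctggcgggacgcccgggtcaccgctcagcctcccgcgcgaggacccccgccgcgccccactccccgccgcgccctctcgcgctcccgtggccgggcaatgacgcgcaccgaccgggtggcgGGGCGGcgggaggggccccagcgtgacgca
Tfec: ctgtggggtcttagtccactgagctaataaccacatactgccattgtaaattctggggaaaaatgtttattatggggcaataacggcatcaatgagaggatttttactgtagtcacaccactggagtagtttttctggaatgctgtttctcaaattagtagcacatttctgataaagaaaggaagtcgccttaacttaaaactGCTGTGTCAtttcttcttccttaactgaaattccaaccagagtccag

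The motifs were GAGGAA (the PU.1 core), TTGCNNAA (C/EBP), CACGTG (the E-box bound by MiT and BHLHE proteins), CATGTG (the M-box), TGANNNNGC (the core of antioxidant elements), the NF-kB motif, TGACGTCA (the cAMP element), GGGCGG (the GC box) and TATAAA (the TATA box). The Cebpb promoter held 5 GC boxes, a motif found in 32.7% of all 32851 promoters, and no other match. The NF-kB motif was searched in a single strict form, and looser forms of this site were not searched. That form, held by 1.21% of all promoters, and the PU.1 core, held by 23.3%, had no match in the 8 stretches found for the members. The Cebpa promoter held a TATA box at bases -30 to -25, a motif present in 12.4% of promoters, and no other match. An E-box, the sequence that Bhlhe41 protein itself can bind, stood at bases -153 to -148 from the RefSeq start of Bhlhe41, in a stretch not printed, and in 6.02% of all promoters. The Tfec stretch held an antioxidant element core at bases -47 to -39, present in 35.2% of promoters. GC content was 66.4% for Cebpa, 81.6% for Cebpb, 73.6% for Bhlhe41 and 39.2% for Tfec, against a median of 52.4% over all promoters. RefSeq promoters were matched for 6 of the 9 members, the others being Spi1, Cebpd and Maf. These matches describe letters in a window and say nothing of binding in these cells.

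All 9 members passed the expression filter and all 9 differed between the groups. With PLG 8 were lower and 1, Cebpb, was higher (limma, Benjamini-Hochberg adjusted over 9997 genes, threshold 0.05). Over all genes tested 60.4% were called, 31.3% as lower and 29.1% as higher. The 8 members that fell had all 5 PLG samples below all 5 untreated samples, as did 24.5% of all genes tested; the opposite order, which 0 members showed, held for 22.7%. The median log2 fold change of the 9 members was -0.77, against -0.02 over all genes tested. Fold changes are PLG over untreated, computed from log2(FPKM + 1), so that for weakly expressed genes they come out smaller than the change in FPKM. The exact two-sided permutation p of each of these 8 was 0.00794, the smallest that the 252 assignments of samples allow. Without PLG 3, PLG 4 and untreated 2 the same 8 members passed as lower and 0 as higher.

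**Figure D1:**
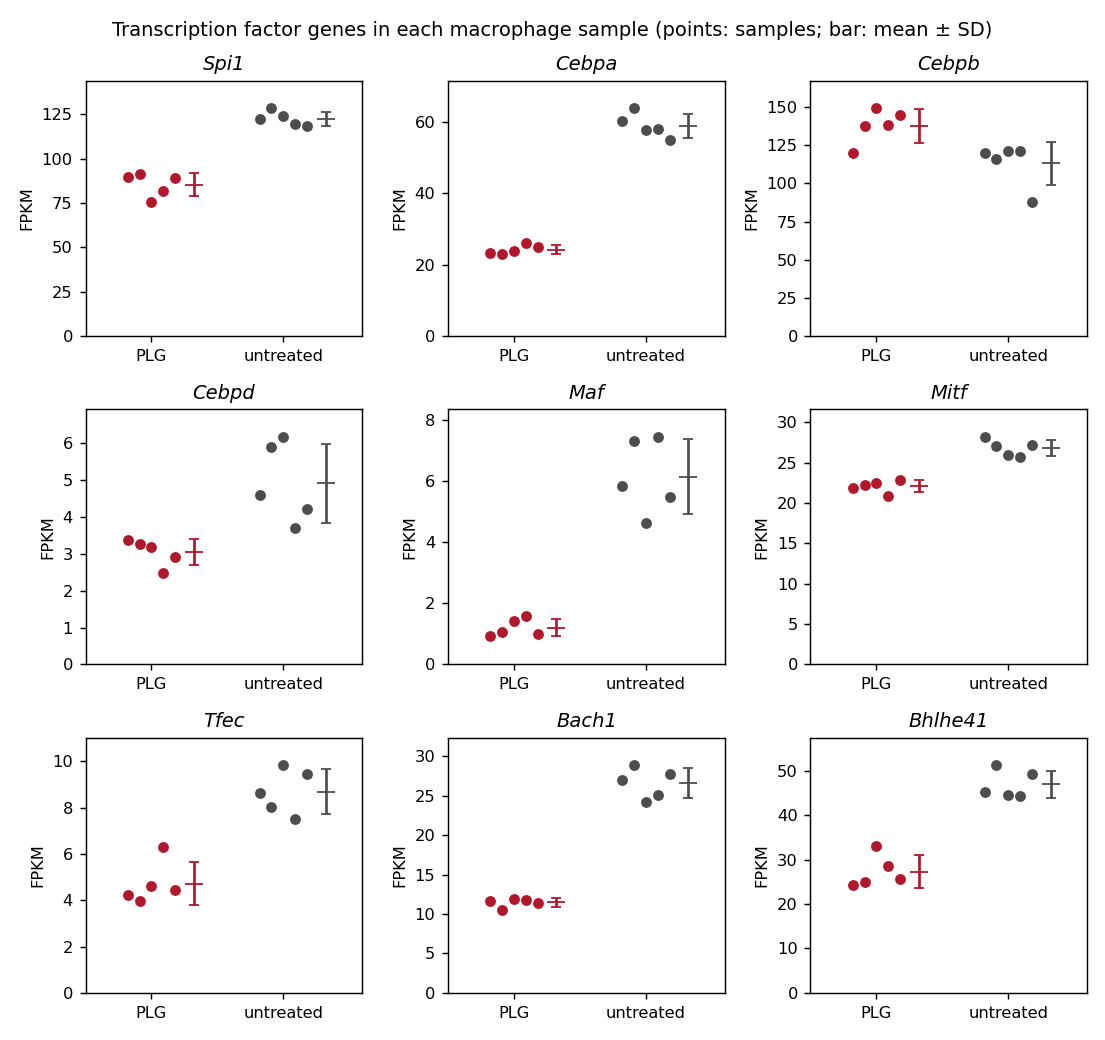
FPKM of each member (vertical axis, from 0) in the 5 PLG samples (red) and the 5 untreated samples (grey), with the mean and SD beside the points. The groups do not touch except for Cebpb, where PLG 1 at 119.7 FPKM lies within the untreated range.

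Spi1 (ENSMUSG00000002111.8, chromosome 2, 91082390 to 91115756) encodes PU.1, the ETS factor without which macrophages do not form. It stood at 89.5, 91.1, 75.7, 81.6 and 88.8 FPKM in PLG samples 1 to 5, against 122, 128, 124, 119 and 118 FPKM in untreated samples 1 to 5. Every PLG sample was lower than every untreated sample, and the group mean with PLG was 69.7% of the untreated mean. The means were 85.3 ± 6.50 FPKM with PLG and 122 ± 4.02 FPKM untreated (SD, n = 5 each). On the log2 scale Spi1 fell by 0.52 with an SE of 0.05 (limma adjusted p = 1.65e-06). It remained among the most abundant genes, above 95.9% of tested genes with PLG and 97.9% untreated.

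The 3 C/EBP members moved by different amounts and in different directions. Cebpa (ENSMUSG00000034957.10, chromosome 7, 35119293 to 35121928) encodes C/EBP alpha, which marrow progenitors need to enter the granulocyte and monocyte lineages. Its levels were 23.2, 22.9, 23.8, 26.0 and 24.8 FPKM in PLG samples 1 to 5, against 60.2, 63.8, 57.6, 58.1 and 54.8 FPKM in untreated samples. The groups were far apart, with means of 24.1 ± 1.27 FPKM with PLG and 58.9 ± 3.34 FPKM untreated (SD, n = 5 each). The log2 fold change was -1.25 with an SE of 0.05 (limma adjusted p = 1.38e-10), and 3.64% of all genes tested had a lower value.

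Cebpb (ENSMUSG00000056501.3, chromosome 2, 167688915 to 167690418) encodes C/EBP beta, which works with NF-kB at inflammatory genes. It was measured at 119.7, 137, 149, 139 and 145 FPKM in PLG samples 1 to 5, against 119.6, 116, 121, 121 and 88.1 FPKM in untreated samples. PLG 1 lay within the untreated range and untreated 5 lay below the rest of its group. The log2 fold change was 0.29 (SE 0.09, limma adjusted p = 0.0119, exact two-sided permutation p = 0.0238), the smallest shift of the 9 after that of Mitf. Without untreated 5 it was 0.20 (adjusted p = 0.0132). The call was lost with quantile normalization (0.05, adjusted p = 0.673) and without PLG 3, PLG 4 and untreated 2 (0.26, adjusted p = 0.0716). Per GENCODE release M21, 312 exon bases of Cebpb, 20.7% of its counted length, are also exon of Tmem189 on the opposite strand. Tmem189 was lower with PLG, at 43.3 to 47.1 FPKM against 53.9 to 67.0 FPKM untreated. Strand handling in the counting is not given in the sources used here, and the part of shared reads in the Cebpb result was not tested.

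Cebpd (ENSMUSG00000071637.5, chromosome 16, 15887286 to 15891031) encodes C/EBP delta, an inducible relative known from acute inflammation. It was the least abundant C/EBP member, with 3.37, 3.25, 3.17, 2.48 and 2.90 FPKM in PLG samples 1 to 5, against 4.57, 5.90, 6.16, 3.71 and 4.20 FPKM in untreated samples. All PLG samples were lower, by a smaller margin than for Cebpa (log2 fold change -0.54, SE 0.12, limma adjusted p = 0.00156). Exons of Spidr on the opposite strand cover 562 of its bases, and Spidr stood at 2.25 to 2.77 FPKM with PLG and 2.07 to 2.64 FPKM untreated.

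Differences between factors were tested directly as per-sample log2 ratios of FPKM + 1, with exact two-sided permutation tests adjusted over 5 pairs. All pairs but Cebpb over Spi1 were of the same family. Cebpb over Cebpa averaged 2.46 ± 0.12 in PLG samples and 0.92 ± 0.16 in untreated samples (SD, n = 5 each), a difference of 1.54 with no overlap (exact permutation p = 0.00794, adjusted p = 0.00992). The same p-values applied to Cebpd over Cebpa, which was higher with PLG by 0.72, to Cebpd over Cebpb, lower by 0.82, and to Cebpb over Spi1, higher by 0.81. Thus Cebpa fell relative to both of its relatives, and Cebpd fell relative to Cebpb. As a share of the summed FPKM of the 3 genes, Cebpb made up 81.8% to 84.7% in PLG samples and 59.9% to 66.2% in untreated samples. Cebpa made up 13.5% to 15.9% in PLG samples and 31.1% to 37.2% in untreated samples. The sum itself overlapped between the groups, at 146 to 176 FPKM with PLG and 147 to 186 FPKM untreated.

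**Figure D2:**
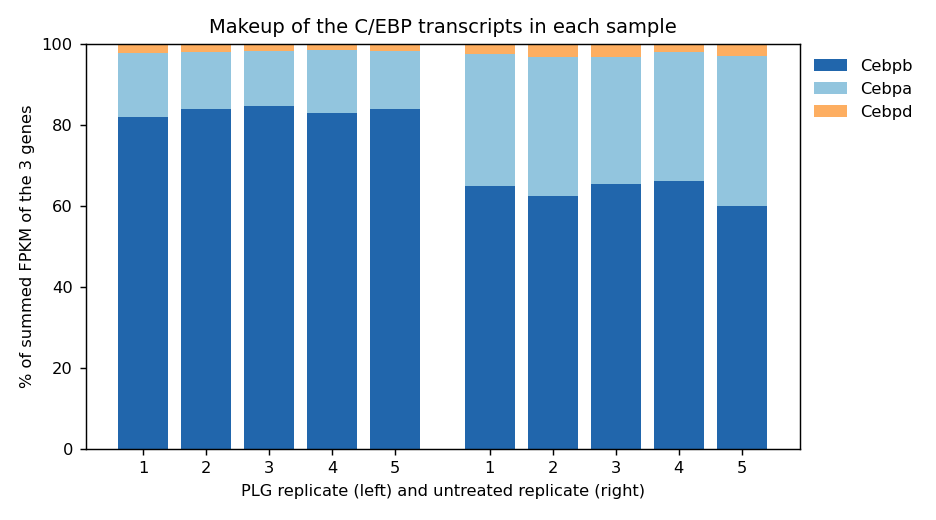
Share of Cebpb, Cebpa and Cebpd in their summed FPKM (vertical axis, %) in each PLG sample (left bars) and untreated sample (right bars). Cebpb takes at least 81.8% in every PLG sample and at most 66.2% in every untreated sample.

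Maf (ENSMUSG00000055435.6, chromosome 8, 115682942 to 115707794) encodes c-MAF, a leucine zipper factor that, in mouse macrophages, restrains self-renewal and drives Il10. It was at 0.939, 1.05, 1.42, 1.58 and 1.01 FPKM in PLG samples 1 to 5, against 5.83, 7.31, 4.62, 7.44 and 5.48 FPKM in untreated samples. In FPKM this was the largest relative fall among the 9 members, to 19.5% of the untreated mean (log2 fold change -1.69, SE 0.13, limma adjusted p = 5.06e-08), and 1.37% of all genes tested had a lower value. With PLG it was the least abundant member, whereas in untreated samples its range overlapped that of Cebpd. Because the levels are low, the size depends on the added constant: it was -2.27 with 0.1 and -0.84 with 5 in place of 1. With 5 added, Cebpa (-1.13) and Bach1 (-0.94) fell further than Maf. The same constant gave -0.30 for Cebpd and -0.50 for Tfec, and all of these stayed past the threshold. The antisense gene model Gm15655 shares 440 exon bases with Maf.

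Mitf and Tfec encode basic helix-loop-helix zipper proteins of the MiT family, which act on lysosomal and osteoclast genes, and Tfec is known for its restriction to macrophages and osteoclasts. Mitf (ENSMUSG00000035158.15, chromosome 6, 97807052 to 98021349) was at 21.8, 22.3, 22.5, 20.9 and 22.8 FPKM in PLG samples 1 to 5, against 28.2, 27.1, 25.9, 25.8 and 27.2 FPKM in untreated samples. Its groups were separate although the shift was small (log2 fold change -0.27, SE 0.05, limma adjusted p = 1.70e-04). Tfec (ENSMUSG00000029553.10, chromosome 6, 16833373 to 16898441) was at 4.24, 3.97, 4.61, 6.305 and 4.46 FPKM in PLG samples 1 to 5, against 8.63, 8.05, 9.83, 7.53 and 9.44 FPKM in untreated samples. PLG 4 stood above the rest of its group and still below every untreated sample (log2 fold change -0.77, SE 0.11, limma adjusted p = 2.44e-05). Tfec over Mitf, as a log2 ratio, averaged -2.03 ± 0.25 in PLG samples and -1.53 ± 0.15 in untreated samples (SD, n = 5 each; exact permutation p = 0.0317, adjusted p = 0.0317). The ratio's groups overlapped through PLG 4. The call did not hold without PLG 1, 2, 3 or 5 or untreated 3 or 5 (adjusted p = 0.0635 in each case), and with 5 added in place of 1 the difference was -0.26. Mitf has 3 RefSeq promoters, and the gene-level values do not tell its isoforms apart.

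Bach1 (ENSMUSG00000025612.5, chromosome 16, 87698945 to 87733346) encodes a repressor that haem releases from DNA and that holds down Hmox1 and other antioxidant genes. It was at 11.7, 10.6, 11.9, 11.8 and 11.4 FPKM in PLG samples 1 to 5, against 27.0, 28.9, 24.2, 25.1 and 27.8 FPKM in untreated samples. Spread was small beside the shift, and the PLG mean was 43.2% of the untreated mean (log2 fold change -1.14, SE 0.06, limma adjusted p = 1.18e-09). Bhlhe41 (ENSMUSG00000030256.11, chromosome 6, 145858243 to 145865558) encodes a transcriptional repressor that, with Bhlhe40, supports renewal of mouse tissue macrophages. Its values were 24.4, 24.9, 33.2, 28.5 and 25.6 FPKM in PLG samples 1 to 5, against 45.3, 51.2, 44.7, 44.3 and 49.2 FPKM in untreated samples. The groups did not overlap (log2 fold change -0.77, SE 0.08, limma adjusted p = 1.45e-06). The gene model Gm43909 on the opposite strand shares 1280 exon bases with Bhlhe41.

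**Figure D3:**
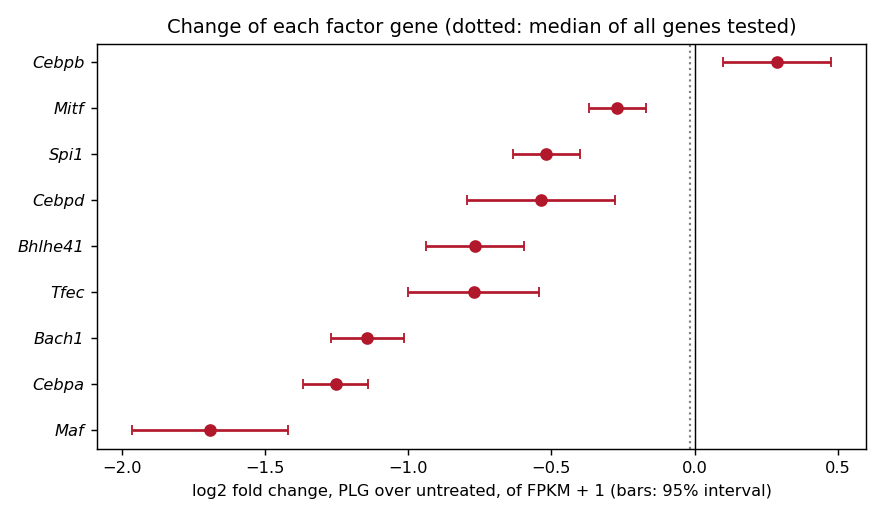
Log2 fold change of FPKM + 1, PLG over untreated (horizontal axis), with the 95% interval from limma for each member, and the median of all genes tested as a dotted line at -0.02. The intervals of Maf, Cebpa and Bach1 end at -1.42, -1.14 and -1.01 on the side nearest 0, and that of Cebpb runs between 0.10 and 0.48.

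Falls of at least 2-fold on this scale were seen for 3 of 9 members, Maf, Cebpa and Bach1, and for 5.67% of all genes tested, whereas 0 members and 8.35% of genes rose that much. The order of levels changed with them. In PLG samples it ran Cebpb, Spi1, Bhlhe41, Cebpa, Mitf, Bach1, Tfec, Cebpd and Maf by mean FPKM, and only Bhlhe41 and Cebpa, as neighbours, had ranges that overlapped. In untreated samples it ran Spi1, Cebpb, Cebpa, Bhlhe41, Mitf, Bach1, Tfec, Maf and Cebpd, with overlap between Spi1 and Cebpb, between Mitf and Bach1 and between Maf and Cebpd. Relative to its mean, Maf varied most among PLG samples (coefficient of variation 23.6%) and Cebpd among untreated samples (21.9%). The steadiest were Mitf with PLG (3.35%) and Spi1 untreated (3.29%).

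Relatives of the members did not follow them as a group. Of 20 related factors 18 were tested, of which 8 were higher and 4 lower with PLG and 6 did not pass. Over all genes tested 29.1% were higher and 31.3% lower. Spic, named here after its values were seen and among those higher, was at most 0.239 FPKM untreated. It passed the filter through PLG samples alone, which fixed its direction. The small MAF protein gene Maff rose, with 16.4 ± 1.59 FPKM in PLG samples and 2.95 ± 0.781 FPKM in untreated samples. Among MiT relatives Tfeb, a regulator of lysosome formation, was at 3.14 ± 0.331 FPKM with PLG and 11.6 ± 1.37 FPKM untreated. Tfe3, named here after its values were seen, was at 14.3 ± 0.756 FPKM with PLG and 14.5 ± 1.21 FPKM untreated and did not pass (limma adjusted p = 0.845). Bhlhe40 rose where Bhlhe41 fell, to 138 ± 3.37 FPKM in PLG samples against 91.0 ± 2.03 FPKM in untreated samples. The ETS genes went both ways: Ets2 rose, to 46.5 ± 1.82 FPKM with PLG against 8.69 ± 0.958 FPKM untreated, and Fli1 fell, to 12.3 ± 0.920 FPKM against 20.9 ± 2.38 FPKM untreated. Nfe2l2, whose product NRF2 competes with Bach1 at antioxidant genes, was at 105 ± 3.28 FPKM with PLG and 112 ± 5.57 FPKM untreated and did not pass (limma adjusted p = 0.117). Of 22 alternatives, 3 called Nfe2l2 lower, namely quantile normalization, voom on recovered reads and leaving out the repeat-like gene models (adjusted p 3.53e-05 to 0.431 over the 22).

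Other transcription factors of the myeloid lineage also divided, with 7 of 13 tested higher, 5 lower and 1 not past the threshold. The shares over all genes tested were 29.1% higher and 31.3% lower. Irf8, which partners PU.1, was at 124 ± 6.15 FPKM with PLG and 28.1 ± 2.41 FPKM untreated. Relb, an NF-kB subunit important in dendritic cells, was at 52.5 ± 3.56 FPKM with PLG and 9.21 ± 1.78 FPKM untreated. Batf3, required for a dendritic cell subset, was at 17.0 ± 1.30 FPKM with PLG and 7.63 ± 1.42 FPKM untreated. Pparg, the lipid-sensing receptor that GM-CSF induces in macrophages, showed the largest fall of that list, to 0.488 ± 0.145 FPKM with PLG against 9.29 ± 0.833 FPKM untreated. At most 0.717 FPKM with PLG, Pparg passed the filter through untreated samples alone, which fixed its direction. Klf4 and Zeb2 fell as well, with log2 fold changes of -2.17 and -0.41. Nr1h3, which encodes the oxysterol receptor LXR alpha, was at 2.46 ± 0.463 FPKM with PLG and 2.76 ± 0.610 FPKM untreated and did not pass (limma adjusted p = 0.447). Over 31 tested genes of these lists and all 10 samples, the profile nearest to that of Cebpb, by root mean square distance of centred log2 values, was that of Mafg (0.17), then Tcf4 (0.20). Nearest to Maf was Tfeb (0.22).

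Genes that textbooks tie to these factors were read from 5 lists, beside which stand the 31.3% of all genes tested that were lower, the 29.1% that were higher and their median log2 fold change of -0.02. Of 18 genes bound and driven by PU.1, 11 were lower and 3 higher with PLG, with a median log2 fold change of -0.27. Those lower included Lyz2, the macrophage lysozyme (2000 ± 77.9 FPKM with PLG and 5792 ± 561 FPKM untreated), Ctss, a cathepsin (log2 fold change -0.85), and the adaptor Tyrobp (-1.17). Adgre1, the F4/80 antigen, rose (177 ± 9.79 FPKM with PLG and 80.0 ± 4.80 FPKM untreated), as did the NADPH oxidase genes Cybb (1.08) and Ncf1 (0.85). Csf2rb, a chain of the GM-CSF receptor, was at 490 ± 24.2 FPKM with PLG and 517 ± 9.26 FPKM untreated and did not pass, although the same 3 alternatives called it lower (adjusted p 5.24e-05 to 0.620 over the 22).

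Among genes tied to C/EBP factors 14 of 17 measured were tested. With PLG 11 were higher and 0 lower, at a median log2 fold change of 3.57. Lcn2, Il6, Ptgs2, Nos2 and Camp were under 1 FPKM in every untreated sample (at most 0.958 FPKM). They passed the expression filter through PLG samples alone, which fixed their direction as higher. Il6, Nos2 and Camp were named here after their values were seen. Il1b, Ptgs2 and Lcn2 led, with log2 fold changes of 9.17, 7.09 and 6.85, and these genes are also known targets of NF-kB. Csf3r, the G-CSF receptor gene and a known target of Cebpa, was at 6.62 ± 0.892 FPKM with PLG and 5.60 ± 0.923 FPKM untreated and did not pass (limma adjusted p = 0.115). Csf3r was called higher without PLG 3, without untreated 3 and without PLG 3, PLG 4 and untreated 2 (adjusted p 0.0294 to 0.263 over 22 alternatives).

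Genes tied to MiT factors were mostly lower, 12 of 17 tested, with 3 higher and a median of -0.51. Atp6v0d2, a proton pump subunit of osteoclasts, was at 86.9 ± 3.84 FPKM with PLG and 309 ± 14.4 FPKM untreated. Gpnmb, a glycoprotein of lysosomes and melanosomes, was at 937 ± 37.6 FPKM with PLG and 2044 ± 87.6 FPKM untreated, and Hexa, a lysosomal hexosaminidase, at 143 ± 3.92 FPKM with PLG and 273 ± 11.0 FPKM untreated. Sqstm1, the autophagy receptor p62, rose to 393 ± 33.1 FPKM with PLG against 131 ± 7.85 FPKM untreated, and Acp5 (1.14) and Clcn7 (0.38) rose too. The sialidase gene Neu1 was at 32.3 ± 2.49 FPKM with PLG and 32.4 ± 1.83 FPKM untreated and did not pass.

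Of 13 genes tied to BACH1, all tested, 11 were higher and 1 lower with PLG, at a median of 0.70. The list was drawn up as one of repressed genes, but Hk2, a glycolytic enzyme gene that was among those higher (0.52), is known as a gene that BACH1 activates. Without Hk2, left out after its value was seen, 10 of 12 were higher and 1 lower, at a median of 0.86. Hmox1, the haem-degrading enzyme, was at 480 ± 37.9 FPKM with PLG and 114 ± 6.07 FPKM untreated (log2 fold change 2.06, limma adjusted p = 4.53e-12). Srxn1 and Slc7a11, which serve thiol defence, were higher by 1.14 and 1.10. The ferritin light chain gene Ftl1 was lower (-0.21, limma adjusted p = 0.00608), but its value was 0.11 with quantile normalization, not past the threshold, and the call was also lost with no filter. Slc40a1, the iron exporter, was at 8.60 ± 1.41 FPKM with PLG and 8.23 ± 1.02 FPKM untreated and did not pass.

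Genes tied to MAF factors showed the largest falls, with 7 of 9 tested lower and 2 higher and a median of -2.48. The complement chains C1qb and C1qc, which opsonize targets for uptake, fell by 2.79 and 2.48 on the log2 scale. Mrc1, the mannose receptor, was at 3.76 ± 0.490 FPKM with PLG and 58.8 ± 3.81 FPKM untreated. Il12b, a cytokine subunit that c-MAF is known to restrain, rose to 191 ± 22.8 FPKM with PLG against 1.14 ± 1.04 FPKM untreated. The scavenger receptor Marco rose too (3.45). Marco was at most 0.693 FPKM untreated, and F13a1, among those lower, at most 0.845 FPKM with PLG. Each passed the expression filter through a single group, which fixed its direction. F13a1 was named here after its values were seen. Il10, Cd163 and Folr2, named here after their values were seen, were too low for the expression filter and not tested. Il10 was at 0.081 to 0.85 FPKM in PLG samples and 0 FPKM in untreated samples. Cd163 and Folr2 were at means of 0.148 and 0.0286 FPKM with PLG against 1.03 and 0.148 FPKM untreated. The lists were compiled from general knowledge, and a change in a listed gene does not show that the named factor caused it.

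**Figure D4:**
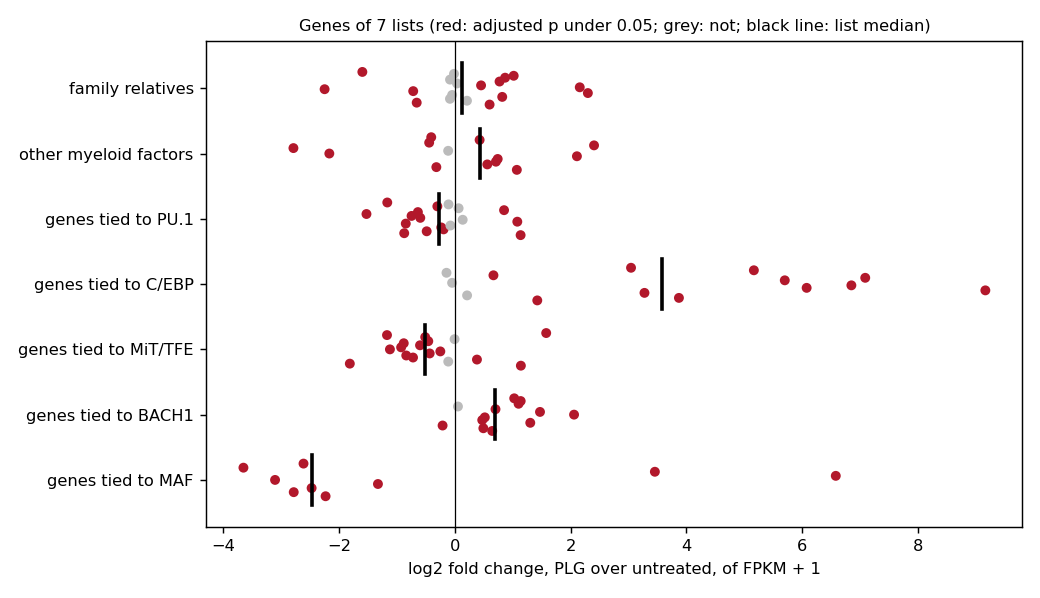
Log2 fold change of FPKM + 1, PLG over untreated (horizontal axis), for each tested gene of 7 lists, red where the limma adjusted p was under 0.05, with each list's median as a black line. Medians run from -2.48 for genes tied to MAF to 3.57 for genes tied to C/EBP.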

How the data were processed

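RNA of 10 samples of mouse macrophages was sequenced from libraries made with a total RNA kit of NuGen, per the labels' protocols. The authors deposited FPKM with 3 decimals for 16936 protein-coding genes. Per the submitters' processing notes, GRCm38.p6 was the build and the tools were STAR 2.7.3a, featureCounts 2.0.0, DESeq2 1.24.0, FastQC 0.11.9 and cutadapt 2.10. Which annotation release was used, whether counting used strand and how multimapping reads were handled is not given in the sources used here. FPKM times gene length fell on whole multiples of 1 read (tolerance 0.1) for 100% of the low values tried in each sample, which gave the reads behind each value. No count test was the main result, because the deposited unit is FPKM; voom on the recovered reads, an alternative, called 6208 genes.

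Values were analysed as log2(FPKM + 1) for the 9997 genes at 1 FPKM or more in at least 5 samples, with limma 3.58.1 under R 4.3.3, a model holding PLG alone, an intensity trend and Benjamini-Hochberg adjustment at 0.05. Exact permutation tests used scipy 1.17.1. The model was also tried on simulated data of 9997 independent genes, with 50 genes changed at each size. It recovered 38% of 1.25-fold, 82% of 1.5-fold and 98% of 2-fold changes, with 14 false calls. Far fewer genes were changed there than were called in the real data. Members, 7 gene lists and 9 marker lists were chosen with earlier results of these data known. Genes named beside the members are the 3 with the smallest p in each direction of each list and its most abundant gene that did not pass, plus the 2 factor genes nearest in profile to the member with the largest rise and to that with the largest fall; 1 gene that this rule names is not reported here. Exons were taken from GENCODE M21 and promoters from RefSeq. Alternatives covered pseudocounts, filters, scaling, moderation, voom on the recovered reads, a replicate block and leaving out samples.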

Additional observations from a re-analysis of the deposited data

Results flagged for a closer look

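Of 28 groups of 5 values examined, for the 9 members and the 5 ratios, 3 held a sample far from the others, and chance flags about 1 in 20 such groups. Untreated 5 had 88.1 FPKM of Cebpb, with the other untreated samples at 116 to 121 FPKM. PLG 4 had 6.305 FPKM of Tfec, with the other PLG samples at 3.97 to 4.61 FPKM. The log2 ratio of Tfec over Mitf in PLG 4 was -1.58, the highest of its group, and shares the Tfec value.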

How the results depend on the processing

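In each of the 22 alternatives that could be fitted, the 8 members lower with PLG kept their direction and call, and the counts of genes called stayed within 1.5 times of 6040 (4318 to 6755). Cebpd and Maf lay under a filter of 5 FPKM and were not tested there, which left 6 members lower. Cebpb kept its sign throughout but missed the threshold with quantile normalization (log2 fold change 0.0457) and without PLG 3, PLG 4 and untreated 2 (0.26). Leaving out these 3 libraries, and leaving out the repeat-like gene models, were chosen after seeing the data. The cause of the lost calls was not tested. Same-numbered samples correlated at -0.12 to 0.10 in their deviations from the group means. Such correlations cannot show whether these samples share a mouse or culture, and the labels do not state it. Replicate 1 alone correlated best with its own number. With a replicate block limma called 5785 genes and all 9 members. In the ratio tests the replicate block left the differences as they were (1.54 for Cebpb over Cebpa, 0.72 for Cebpd over Cebpa, -0.82 for Cebpd over Cebpb, -0.50 for Tfec over Mitf and 0.81 for Cebpb over Spi1), and with 5 pairs no p under the threshold can be reached. Leaving out single samples moved the difference of Tfec over Mitf between -0.61 and -0.45. Among the other named genes, 4 changed sign in some alternative, 3 of them not past the threshold in any. Ftl1 was at 0.1106 with quantile normalization. With median-of-ratios scaling Neu1 was at 0.0343 and Tfe3 at 0.0227. Slc40a1 was at -0.008 without the repeat-like gene models and at -0.0872 without PLG 3, PLG 4 and untreated 2. Leaving out single samples moved Neu1 between -0.0362 and 0.0274, Slc40a1 between -0.015 and 0.118 and Tfe3 between -0.0642 and 0.0103. Depth limited no member, the lowest read number being 351.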

Other observations

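Markers of cells other than macrophages and dendritic cells showed low levels with a few exceptions. Neutrophil markers summed to 23.4 to 31.4 FPKM in PLG samples and 15.4 to 26.8 FPKM in untreated samples. Of 5 tested genes 2 were higher with PLG. Camp, among these, was at most 0.814 FPKM untreated and passed the filter through PLG samples alone, which fixed its direction. Mast cell and basophil markers summed to 8.24 to 11.8 FPKM in PLG samples and 7.40 to 17.2 FPKM in untreated samples, mostly from Kit, and 1 of 2 tested genes was lower. Of the eosinophil markers, the 1 tested, Siglecf, fell to 1.35 FPKM on average with PLG against 9.48 FPKM untreated. Prg2 and Epx, too low for the filter, were at means of 1.11 and 0.336 FPKM with PLG against 0.113 and 0.0612 FPKM untreated. Ear1, also too low, was at a mean of 0.0434 FPKM with PLG and 0.0968 FPKM untreated. The stromal markers rested on Pdgfrb, at 5.18 FPKM on average with PLG and 0.253 FPKM untreated, while the collagen genes Col1a1 and Col1a2 stayed at means of 0.260 FPKM or below in either group. Of the erythroid markers, Klf1, at most 0.193 FPKM with PLG and 0.262 FPKM untreated, was measured. Camp, Siglecf, Prg2, Epx, Ear1, Kit, Pdgfrb, Klf1 and the collagen genes were named after their values were seen. The part of any of these cells in the results on the factors was not tested.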
